A study of Mus musculus with 12 samples.

Results

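The 10 genes described here were chosen by name as genes of the acrosome and of sperm-egg fusion. They are Izumo1, Spaca6, Spaca1, Zpbp, Zpbp2, Adam2, Adam3, Acr, Acrbp and Acrv1, and each was matched to 1 of the 20718 genes of the deposited table by its symbol. Total RNA of F0 mouse testes, of a strain that the labels call IRC mouse, was sequenced in 12 libraries, 3 for each of 4 groups. In the OV group (8276OV) a virus was used to overexpress the long noncoding RNA lncRNA8276, and the 5NC group was set beside it. In the KD group (8276KD) a virus was used to inhibit lncRNA8276, and the 3NC group was set beside it. The series design lists a control virus group beside each treated group, but what 5NC and 3NC stand for is not spelled out. Pairing them with OV and KD as control groups follows only the sequence in which the design lists the groups. All 4 groups share the strain and the tissue, and the labels used here name no age, virus type, promoter or dose. The labels also do not say whether the libraries of a group came from separate animals, so every p-value measures the spread between these libraries, which may be technical. The level of lncRNA8276 itself was not analysed here.

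The acrosome is a vesicle that spermatids build from the Golgi apparatus over the front of the nucleus, and its contents are released when the sperm meets the egg coat. Acrosin, the product of Acr, is a protease stored there as a precursor that is held by the protein made from Acrbp, and Acrv1 encodes a further protein of the acrosomal matrix that is made by round spermatids. Spaca1 encodes a protein of the inner acrosomal membrane, and Zpbp and Zpbp2 encode matrix proteins named for binding the zona pellucida; loss of Spaca1 or Zpbp gives misshapen sperm heads in mice. Adam2 and Adam3 encode sperm surface proteins that mouse sperm need to pass into the oviduct and to bind the zona. Izumo1 binds its receptor Juno (gene Izumo1r) on the egg, and Spaca6 is another sperm membrane protein without which mouse sperm do not fuse with the egg.

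All 10 genes are protein-coding and lie on 9 chromosomes of the mouse genome, with positions from the RefSeq gene table of build GRCm38.p6. Izumo1 (Entrez 73456) lies at chr7:45621811-45627242 and Spaca6 (75202) at chr17:17826085-17843010. Spaca1 (67652) lies at chr4:34024872-34050067. Zpbp (53604) at chr11:11279624-11464223 and Zpbp2 (69376) at chr11:98551097-98558665 share a chromosome but are not neighbours. Adam2 (11495) lies at chr14:66027322-66077851 and Adam3 (11497) at chr8:24677232-24726377. Acr (11434) lies at chr15:89568326-89578853, Acrbp (54137) at chr6:125049927-125063265 and Acrv1 (11451) at chr9:36693220-36698845. The GENCODE M21 annotation places 1336 bases of Izumo1 under Rasip1 and 1854 bases of Acrbp under Gm44597, both on the same strand. Among overlaps on the other strand are 3145 bases of Adam3 with Gm45528, 315 bases of Zpbp with Spata48 and 163 bases of Acrbp with 4930557K07Rik. Strand does not separate the same-strand pairs. For the others, whether the counting used strand is not given in the sources used here. Reads from all those stretches therefore cannot be assigned to 1 gene of each pair.

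The libraries held 15448442 to 16355720 estimated reads, of which the 10 genes took 0.303% to 0.351%. Each gene had between 795 and 23439 estimated reads in a library, which corresponds to a counting error of 3.55% at the lowest count and 0.653% at the highest. Germ cell genes were abundant in all libraries, with 1068824 reads over the 12 libraries for Prm2, a protamine of elongating spermatids, and 595565 for Ldhc, a lactate dehydrogenase subunit of spermatocytes and spermatids. Genes of the egg mostly had few reads. Over all libraries there were 7 for Izumo1r, 17 for Zp1, 2 for Zp2, 38 for Zp3, 82 for Gdf9 and 1 for Bmp15. Nlrp5 of the same list had 1241. In whole testis, fewer spermatids and less of an RNA per spermatid cannot be told apart.

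In these genes, 3 libraries stood apart from the rest. In 5NC replicate 1 all 10 genes were below the mean of the other 5NC libraries, with differences of −7.07% to −19.1% (median −12.6%), and 7 of the 10 had their lowest value of the 12 libraries there. The same library had a Sertoli cell marker sum of 1565 CPM (read counts scaled by library size with TMM factors), against 782.5 to 1090 CPM in the other 11, and all 10 Sertoli markers were above their mean. Leydig cell markers summed to 3348 CPM there, against 1437 to 2590 CPM in the other 11. Above their mean were 10 of 10 Leydig, 8 of 8 macrophage and 5 of 6 peritubular markers. Of the germ cell lists, 1 of 14 spermatid nucleus and tail genes, 1 of 10 spermatocyte markers and 7 of 9 spermatogonial markers were above their mean. In 3NC replicate 2 and OV replicate 3 the acrosome and fusion genes split, with Spaca1, Zpbp, Zpbp2, Adam2 and Adam3 high and Acr and Acrbp low. Results are therefore given with and without these libraries, and the part of cell makeup in them was not tested.

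Per transcript length, the 10 genes spanned a 17.02-fold range. Adam3 had the highest median level at 490.2 FPKM (fragments scaled by transcript length and library size), with a range over 12 libraries of 434 to 556 FPKM. Acrbp followed with a median of 343 FPKM and a range of 287.5 to 355 FPKM. These ranges did not overlap, and Acrbp was in turn above every library of the remaining 8 genes.

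A middle tier of 5 genes had overlapping ranges. Zpbp2 had a median of 196 FPKM and Acrv1 one of 192 FPKM, and Zpbp2 was the higher in 6 of 12 libraries, so they were not ordered. Spaca1 (median 175 FPKM) was below Acrv1 in 10 of 12 libraries and above Adam2 (163 FPKM) in 10 of 12. Acr (143 FPKM) was below Adam2 in 12 of 12 libraries, although their ranges overlapped. The 3 genes at the bottom were each apart from their neighbours in all libraries, with medians of 73.0 FPKM for Zpbp, 56.7 FPKM for Izumo1 and 28.8 FPKM for Spaca6.

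**Figure D1:**
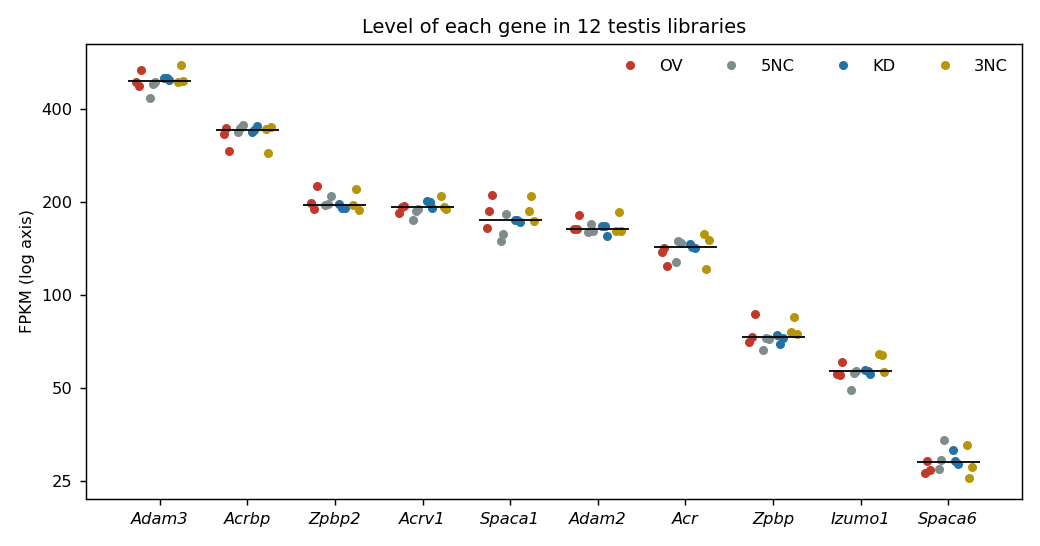
Level of each of the 10 genes in FPKM on a log axis, with a point for each of the 12 libraries coloured by group and a line at the median. Adam3 and Acrbp lie above all others, Zpbp2, Acrv1, Spaca1, Adam2 and Acr overlap, and Spaca6 is lowest at a median of 28.8 FPKM.

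The ratio of levels in FPKM was taken for all 45 pairs of the 10 genes, and the highest library exceeded the lowest by 1.13-fold for Adam2 with Zpbp2 to 1.64-fold for Spaca1 with Acr (median of the pairs 1.29-fold). Zpbp stood at 0.3401 to 0.3999 of Zpbp2 in FPKM over the 12 libraries, Adam2 at 0.3132 to 0.3669 of Adam3, and Acr at 0.3792 to 0.4594 of Acrbp. Of the fusion genes, Izumo1 stood at 1.677 to 2.511 times Spaca6, with the highest ratio in 3NC replicate 2. Adam3 stood at 1.932 times Acrbp in 3NC replicate 2 and 1.826 times in OV replicate 3, against 1.289 to 1.494 times in the other 10 libraries.

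The genes varied little between libraries. The coefficient of variation of CPM over 12 libraries had a median of 7.11% over the 10 genes, against 13.1% over all 16320 genes tested and 7.82% over the 4102 genes expressed at or above the lowest of the 10. In CPM, Spaca1 varied most (10.3%), followed by Acr (9.12%) and Zpbp (8.85%), and Spaca6 least (4.53%). In FPKM the order differed, and Spaca6 was not the least variable. Its mean over 12 libraries was 29.1 ± 2.53 FPKM, beside 192 ± 8.81 FPKM for Acrv1 (SD).

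Promoter windows from RefSeq (GRCm38.p6, the 250 bases before a transcript start in its promoter table) were found for 7 of the 10 genes; Adam2, Adam3 and Acr had none in the table used. Postmeiotic genes are often studied for the cAMP response element, the palindrome TGACGTCA bound by CREM in spermatids, so this motif and its shorter forms were searched on both strands. TGACGTCA was in the window of Izumo1 alone among the 7, with 1.55% of all 32851 windows holding it. TGACGT, or ACGTCA on the other strand, was in Izumo1 and Acrbp (6.47% of all windows), and TGACG, or CGTCA, was in Izumo1, Acrbp, Spaca1 and Zpbp2 (17.8% of all windows); the shorter forms include matches of the longer. The windows of Spaca6, Zpbp and Acrv1 held none of these 3 motifs. Windows of 4 genes are shown. They are those of Izumo1, with the full palindrome, of Spaca1 and Zpbp, and of Acrbp, whose level moved the other way in 2 libraries. Spaca1 and Zpbp were the pair with the highest Pearson's r of log2 CPM over the 12 libraries (0.914). Capitals mark matches to TGACG or CGTCA and, in Izumo1, the whole palindrome. Each is written 5′ to 3′ on the strand of its gene.
Izumo1: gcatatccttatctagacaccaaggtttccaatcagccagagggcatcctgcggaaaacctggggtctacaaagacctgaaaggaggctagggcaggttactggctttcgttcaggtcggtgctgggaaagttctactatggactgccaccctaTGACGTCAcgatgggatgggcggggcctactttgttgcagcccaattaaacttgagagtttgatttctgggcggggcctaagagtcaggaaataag
Spaca1: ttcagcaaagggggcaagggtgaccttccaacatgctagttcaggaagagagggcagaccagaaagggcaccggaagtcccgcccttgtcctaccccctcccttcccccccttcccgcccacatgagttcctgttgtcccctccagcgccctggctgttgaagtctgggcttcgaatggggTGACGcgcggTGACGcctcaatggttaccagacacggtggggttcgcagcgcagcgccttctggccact
Zpbp: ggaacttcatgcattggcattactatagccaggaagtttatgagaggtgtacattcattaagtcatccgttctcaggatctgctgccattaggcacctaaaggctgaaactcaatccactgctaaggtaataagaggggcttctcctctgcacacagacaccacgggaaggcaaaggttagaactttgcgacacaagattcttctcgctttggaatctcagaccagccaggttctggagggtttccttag
Acrbp: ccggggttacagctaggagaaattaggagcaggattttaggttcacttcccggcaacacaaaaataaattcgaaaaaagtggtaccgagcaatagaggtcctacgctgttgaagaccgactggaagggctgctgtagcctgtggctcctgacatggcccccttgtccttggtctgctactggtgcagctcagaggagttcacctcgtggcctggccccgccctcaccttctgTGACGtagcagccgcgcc

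The Izumo1 window is chr7:45621561-45621810 on the plus strand, and its overlapping matches begin 96 and 93 bases before the start. The Spaca1 window is chr4:34050066-34050315 on the minus strand, with matches that begin 69 and 59 bases before the start. The Zpbp window is chr11:11462420-11462669 on the minus strand. It precedes a transcript start 1804 bases inside the gene span given above, so it lies within the gene and not before its outermost start, and the Spaca6 window likewise belongs to a start 4890 bases inside. The Acrbp window is chr6:125049677-125049926 on the plus strand, with a match that begins 18 bases before the start. Spaca1 and Zpbp do not share the motif in these windows, and a match is a description of the letters and not a site or a cause.

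With lncRNA8276 overexpressed, none of the 10 genes passed the test in OV testes against 5NC testes. Fold changes were small in both directions: 7 genes were nominally above and 3 below 5NC, with log2 fold changes between −0.08 and 0.21 and a median of 0.06, against a median of −0.002 over all genes tested. The egg-binding and head-shape genes Spaca1, Zpbp and Adam3 had the highest values, and the acrosin pair Acr and Acrbp the lowest. The 95% intervals of the 10 genes lay between 0.817-fold and 1.34-fold. edgeR's quasi-likelihood test with Benjamini-Hochberg adjustment called 0 of the 10 genes and 0 of 16320 genes in all (0%), with 0 of the 10 and 1697 of all genes (10.4%) at an unadjusted p under 0.05. The count by DESeq2 was 45 genes, with the 10 genes again at 0, and edgeR with the replicate number as a block called 0 genes in the fit of 4 groups and 215 in a fit of OV and 5NC alone, none of them among the 10. For 0 of the 10 genes were the 2 groups without overlap, against 7.64% of all genes higher and 7.56% lower in OV.

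Of the fusion genes, Izumo1 had 74.9, 75.5 and 82.8 CPM in OV, against 63.5, 77.5 and 77.6 CPM in 5NC. The groups overlapped, and the low 5NC value was that of replicate 1. Its log2 fold change was 0.09 ± 0.087 (SE; edgeR adjusted p = 0.684), and it was 0.0008 without 5NC replicate 1. Spaca6 had 53.3, 55.0 and 54.1 CPM in OV, against 51.9, 52.3 and 59.4 CPM in 5NC. All OV values lay inside the 5NC range, and the means were 54.1 ± 0.884 CPM in OV and 54.5 ± 4.26 CPM in 5NC (SD, n = 3 each). The Spaca6 log2 fold change was −0.011 in edgeR (adjusted p = 0.967) and −0.124 with limma on log2(FPKM + 0.1) (adjusted p = 0.663).

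Of the acrosomal membrane and matrix genes, Spaca1 had 157, 181 and 201 CPM in OV, against 137, 155 and 176 CPM in 5NC. Both groups spread widely and overlapped, with 2 OV libraries above all of 5NC. The means were 179.7 ± 21.9 CPM in OV and 156 ± 19.6 CPM in 5NC (SD, n = 3 each), a log2 fold change of 0.21 ± 0.10 with an edgeR adjusted p of 0.491 (unadjusted p = 0.0621). By replicate number, OV was above 5NC by 0.202, 0.221 and 0.192 in log2 CPM, and with the number as a block in a fit of these 2 groups the log2 fold change was 0.20 (edgeR unadjusted p = 0.0297, adjusted p = 0.322). Without a block it was 0.116 without 5NC replicate 1, 0.114 without OV replicate 3 and 0.0342 without 5NC replicate 1, 3NC replicate 2 and OV replicate 3 together.

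Zpbp had 241, 255 and 305 CPM in OV, against 219, 252 and 249 CPM in 5NC, with the extreme values in OV replicate 3 and 5NC replicate 1. Its log2 fold change of 0.16 ± 0.091 (edgeR adjusted p = 0.533) became −0.009 without the 3 libraries. Zpbp2 had 264, 256 and 299 CPM in OV, against 248, 269.7 and 279.9 CPM in 5NC, and the groups interleaved (log2 fold change 0.04 ± 0.078).

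Of the surface ADAM genes, Adam2 had 402, 403 and 446 CPM in OV, against 372, 427 and 398 CPM in 5NC. Adam3 had 1257, 1225 and 1384 CPM in OV, against 1058, 1261 and 1256 CPM in 5NC. In both genes OV replicate 3 was the highest and 5NC replicate 1 the lowest of the 6 libraries, with the rest mixed. Log2 fold changes were 0.06 ± 0.077 for Adam2 and 0.11 ± 0.083 for Adam3 (edgeR adjusted p = 0.750 and 0.606), and without the 3 libraries they were −0.03 and −0.02.

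The acrosomal content genes went different ways by replicate. Acr had 190.4, 198 and 173 CPM in OV, against 169, 212 and 205 CPM in 5NC. Acrbp had 399, 424 and 356 CPM in OV, against 387, 429 and 429.6 CPM in 5NC. The low OV value of both was replicate 3, the library in which Spaca1 and Zpbp were highest, and the groups overlapped. Log2 fold changes were −0.06 ± 0.106 for Acr and −0.08 ± 0.090 for Acrbp (edgeR adjusted p = 0.828 and 0.739). Acrv1 had 176, 187 and 186 CPM in OV, against 161, 184 and 184 CPM in 5NC, and apart from the first replicate of each group the libraries were within a few CPM of each other.

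**Figure D2:**
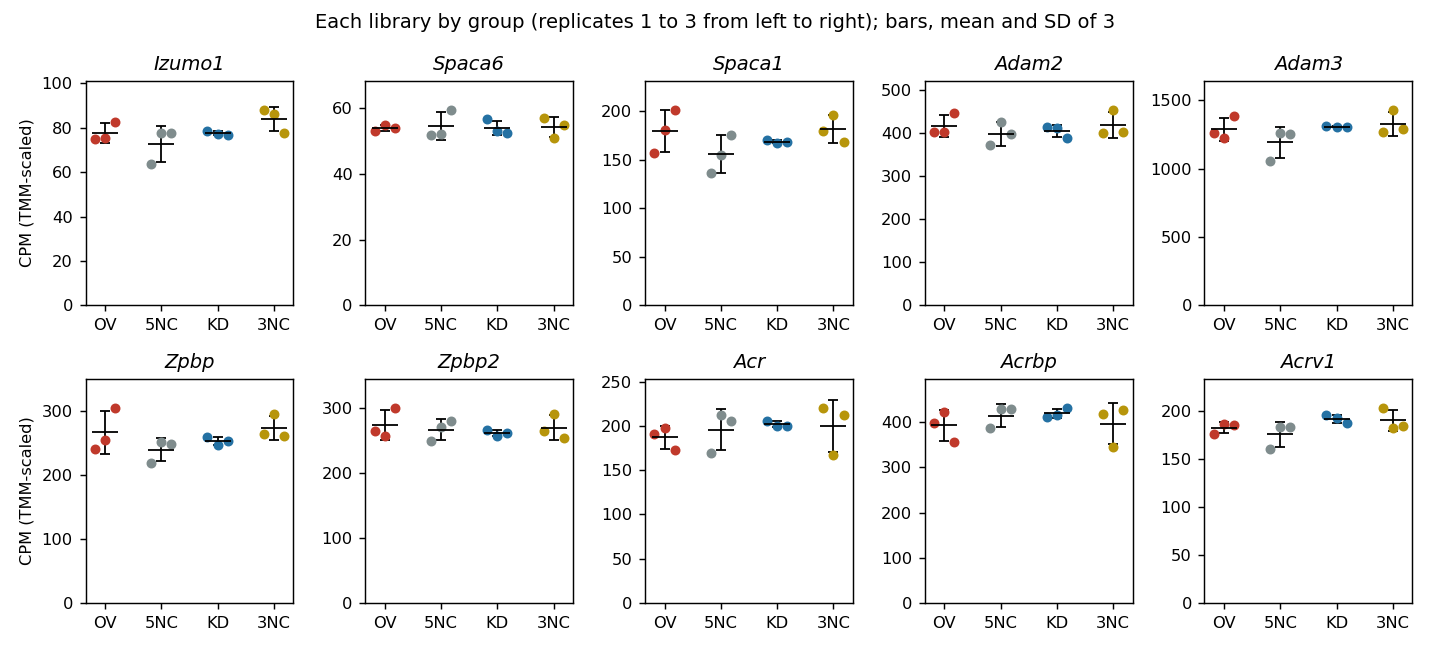
TMM-scaled CPM of each gene in each library, in panels by gene with an axis that starts at 0, as points by group (OV, 5NC, KD, 3NC) with replicates from left to right and the mean and SD of 3 libraries. The groups overlap in most panels, and 5NC replicate 1 is the lowest point of 7 genes.

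With lncRNA8276 inhibited, none of the 10 genes passed the test in KD testes against 3NC testes. Log2 fold changes lay between −0.11 and 0.08, with 3 genes nominally above and 7 below 3NC and a median of −0.03, against −0.002 over all genes tested. The 95% intervals of the 10 genes lay between 0.800-fold and 1.21-fold. edgeR with Benjamini-Hochberg adjustment called 0 of the 10 genes and 29 of 16320 genes (0.178%), 4 higher and 25 lower. At an unadjusted p under 0.05 there were 0 of the 10 and 979 of all genes (6%). The count by DESeq2 was 70 genes, 0 of them among the 10.

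The KD libraries were close to each other. Izumo1 had 78.6, 77.3 and 76.8 CPM in KD, against 87.9, 86.0 and 77.6 CPM in 3NC. The lowest 3NC library fell inside the KD range, and the log2 fold change was −0.11 ± 0.087 (edgeR adjusted p = 0.772). Spaca6 had 56.6, 53.1 and 52.5 CPM in KD, against 57.1, 51.1 and 54.8 CPM in 3NC, with all KD values inside the 3NC range.

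Spaca1 had 170.3, 168 and 168 CPM in KD, against 180.0, 197 and 168 CPM in 3NC, and the groups met at the low end of 3NC. Zpbp had 260.3, 247 and 253 CPM in KD, against 264, 295 and 262 CPM in 3NC. It was the 1 gene of the 10 with no overlap between the groups, all KD libraries being below all 3NC libraries; such separation was found in this direction for 8.74% of all genes tested and in the other, with 0 of the 10, for 7.72%. The Zpbp log2 fold change was −0.11 ± 0.090 (edgeR adjusted p = 0.781), and −0.0523 without 3NC replicate 2. Zpbp2 had 266, 257 and 261 CPM in KD, against 263, 291 and 254 CPM in 3NC, with overlap.

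Adam2 had 416, 412 and 389 CPM in KD, against 399.7, 454 and 403 CPM in 3NC. Adam3 had 1312, 1305 and 1303 CPM in KD, against 1266, 1427 and 1289 CPM in 3NC. For both genes the 3NC range was set at its top by replicate 2, and without that library the log2 fold change of Adam3 was 0.03 in place of −0.02. Means for Adam3 were 1307 ± 4.43 CPM in KD and 1327 ± 87.0 CPM in 3NC (SD, n = 3 each).

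Acr had 206, 199.7 and 200.2 CPM in KD, against 220.2, 167 and 213 CPM in 3NC. Acrbp had 412, 416 and 432 CPM in KD, against 419, 345 and 427 CPM in 3NC. The low 3NC value of both was replicate 2. Among the other libraries the Acrbp values of the 2 groups interleaved, whereas for Acr 3NC was above all of KD. Acr had a log2 fold change of 0.01 ± 0.106, and −0.0998 without 3NC replicate 2 (edgeR unadjusted p = 0.285). Without 5NC replicate 1, 3NC replicate 2 and OV replicate 3 together it was also −0.0998 (edgeR unadjusted p = 0.0273, adjusted p = 0.746). In that setting 1 of the 10 genes was at an unadjusted p under 0.05, beside 991 of 16420 genes in all. Acrbp had the highest value of the 10 at 0.08 ± 0.090 (edgeR adjusted p = 0.825). Acrv1 had 196, 193 and 188 CPM in KD, against 204, 183 and 185 CPM in 3NC, and the groups overlapped.

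The 2 control groups were also compared with each other, and again none of the 10 genes passed the test. Nominally, 8 were lower and 2 higher in 5NC than in 3NC, with a median log2 fold change of −0.09 and a range of −0.22 to 0.06. edgeR with Benjamini-Hochberg adjustment called 0 of the 10 genes and 59 of 16320 genes (0.362%), and DESeq2 called 151 genes with none of the 10. At an unadjusted p under 0.05 there were 2 of the 10 and 1972 of all genes (12.1%). The 2 were Izumo1, at −0.20 ± 0.087 (unadjusted p = 0.0349, adjusted p = 0.397), and Spaca1, at −0.22 ± 0.10 (unadjusted p = 0.0463, adjusted p = 0.411).

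Izumo1 averaged 72.9 ± 8.10 CPM in 5NC and 83.8 ± 5.5 CPM in 3NC (SD, n = 3 each), with no overlap between the groups, although the highest 5NC library (77.57 CPM) and the lowest 3NC library (77.58 CPM) were all but equal. Zpbp averaged 239.7 ± 18.2 CPM in 5NC and 274 ± 18.5 CPM in 3NC, and Adam3 1192 ± 116 CPM in 5NC and 1327 ± 87.0 CPM in 3NC, also without overlap. Beside these 3 of the 10 genes, 8.72% of all genes tested were lower in 5NC without overlap; 0 of the 10 and 8.13% of all were higher. Without 5NC replicate 1 the median of the 10 genes was −0.0325, Izumo1 was at −0.108 and Spaca1 at −0.13. Of the genes of the epididymis, a tissue attached to the testis, Crisp1, Adam7 and Spink8 were highest in 5NC, with a sum over the list of 19.4 to 124 CPM in 5NC and 5.40 to 17.6 CPM in the other 9 libraries; Crisp1 had 163, 1420 and 1405 reads in the 5NC libraries and 0 to 147 in the others. Of the other genes of that list with values here, Rnase10 had 238 reads in OV, 215 in 5NC, 244 in KD and 193 in 3NC, Cst11 had 16 in OV, 2 in 5NC, 3 in KD and 18 in 3NC, and Defb48 had 1 to 3 in each group. The part of that tissue in the difference was not tested.

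The sign of most fold changes depended on the control group they were taken against. Against 3NC in place of 5NC, OV testes had 1 of the 10 genes nominally higher and 9 lower (median −0.03), with 0 called by edgeR among the 10 and 52 of all genes (0.319%), and 0 of the 10 and 5.34% of all at an unadjusted p under 0.05. Against 5NC in place of 3NC, KD testes had 8 nominally higher and 2 lower (median 0.06), with 0 called by edgeR among the 10 and 8 of all genes (0.049%), and 0 of the 10 and 5.06% of all at an unadjusted p under 0.05. In that comparison Adam3 (1307 ± 4.43 CPM in KD, 1192 ± 116 CPM in 5NC) and Acrv1 (192 ± 4.09 CPM in KD, 176 ± 13.3 CPM in 5NC) did not overlap, with adjusted p of 0.958 for both in edgeR. The share of all genes without overlap was not computed for KD against 5NC, so whether this is unusual cannot be said.

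**Figure D3:**
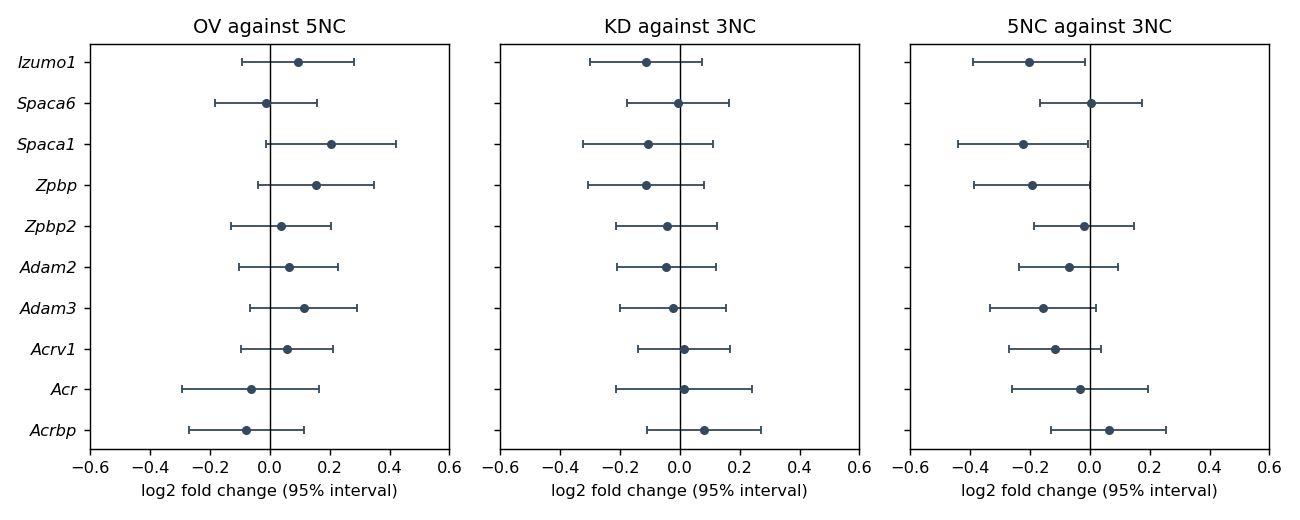
Log2 fold change of each gene with its 95% interval from edgeR, for OV against 5NC, KD against 3NC and 5NC against 3NC. In the first 2 panels every interval includes 0, and in the third those of Izumo1 and Spaca1 lie just below it.

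The difference between the overexpression effect and the inhibition effect was tested directly. edgeR with Benjamini-Hochberg adjustment called 0 of the 10 genes and 10 of 16320 genes (0.0613%), and DESeq2 called 87 genes with none of the 10. At an unadjusted p under 0.05 there were 1 of the 10 and 2560 of all genes (15.7%). The 1 gene was Spaca1, whose overexpression effect exceeded its inhibition effect by 0.31 ± 0.143 on the log2 scale (unadjusted p = 0.0472, adjusted p = 0.314). Zpbp was next at 0.27 ± 0.128 (adjusted p = 0.326), and Acrbp was lowest at −0.16 ± 0.127 (adjusted p = 0.514). This contrast takes in the gap between the 2 control groups, so it does not by itself show opposed effects of lncRNA8276. In 5NC against 3NC the log2 fold change was −0.22 for Spaca1, −0.19 for Zpbp and 0.06 for Acrbp. Spaca1 averaged 179.7 CPM in OV and 168.8 CPM in KD, beside 156 CPM in 5NC and 181.7 CPM in 3NC. The median difference of the 10 genes was 0.10, and 0.0386 without 5NC replicate 1, 0.0481 without OV replicate 3 and 7.35e-05 without 5NC replicate 1, 3NC replicate 2 and OV replicate 3 together. Without these 3 libraries 0 of the 10 genes were at an unadjusted p under 0.05, and the Spaca1 difference was 0.078 (edgeR adjusted p = 0.825), from effects of 0.0342 in OV against 5NC and −0.0437 in KD against 3NC.

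In 3NC replicate 2 and OV replicate 3, 7 of the 10 genes split in opposite directions. Spaca1, Zpbp, Zpbp2, Adam2 and Adam3 were 11.7% to 13.1% above the other 3NC libraries in 3NC replicate 2, and 10.9% to 23.1% above the other OV libraries in OV replicate 3. In the same libraries Acr was at −23.1% and −11.1%, and Acrbp at −18.4% and −13.4%. Izumo1 was at 3.95% and 10.1% in these libraries. Spaca6 and Acrv1 were at −8.69% and −5.81% in 3NC replicate 2 and −0.159% and 2.48% in OV replicate 3. These 2 libraries belong to different groups.

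**Figure D4:**
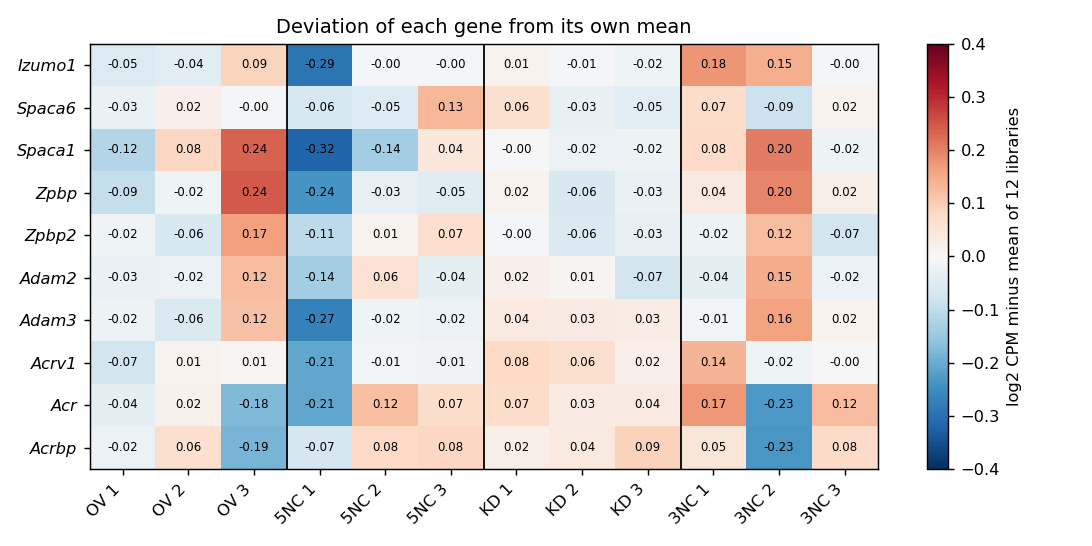
Deviation of the log2 CPM of each gene (rows) from its own mean over 12 libraries, for each library (columns), with the value printed in each cell. 5NC replicate 1 is below 0 for all 10 genes, and in OV replicate 3 and 3NC replicate 2 Acr and Acrbp are low where Spaca1, Zpbp, Zpbp2, Adam2 and Adam3 are high.

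As a description, Pearson's r of log2 CPM over the 12 libraries was 0.914 for Spaca1 with Zpbp, 0.878 for Acr with Acrbp, 0.872 for Adam3 with Zpbp and 0.855 for Adam2 with Zpbp. It was −0.626 for Zpbp2 with Acrbp and −0.591 for Adam2 with Acrbp. All points share the library and its scaling, and most of these values rested on 3 libraries. Over the 9 libraries without 5NC replicate 1, 3NC replicate 2 and OV replicate 3, r was 0.525 for Spaca1 with Zpbp, 0.466 for Acr with Acrbp, 0.194 for Adam3 with Zpbp and −0.032 for Adam2 with Zpbp. Izumo1 with Acrv1 had 0.792 over 12 libraries and 0.80 over the 9. Other pairs changed sign, with Spaca1 and Adam2 at 0.707 over 12 libraries and −0.487 over the 9, Zpbp and Zpbp2 at 0.805 and −0.241, and Zpbp and Acr at −0.194 and 0.781.

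Other gene lists moved with these libraries. The other sperm ADAM genes were above their mean in 12 of 12 cases in both 3NC replicate 2 and OV replicate 3, with mean log2 deviations of 0.224 and 0.219, and in 0 of 12 in 5NC replicate 1. Genes of the spermatid nucleus and tail went down in the same 2 libraries, with 1 of 14 above the mean in 3NC replicate 2 and 2 of 14 in OV replicate 3, and mean deviations of −0.247 and −0.142. Their summed level was 25810 to 27420 CPM in OV, 23880 to 30150 CPM in 5NC, 27940 to 30600 CPM in KD and 24060 to 29540 CPM in 3NC. Sertoli cell markers summed to 856.4 to 1024 CPM in OV, 1057 to 1565 CPM in 5NC, 1051 to 1090 CPM in KD and 782.5 to 1072 CPM in 3NC. Macrophage markers had mean log2 deviations of 1.23, 0.257 and 0.048 in the OV libraries, and 8 of 8 were nominally higher in OV than in 5NC (median log2 fold change 0.71, 5 at an unadjusted p under 0.05). OV replicate 1, where this list was highest, had 0 of the 10 genes above their mean, by a mean of −0.05. Other somatic markers were nominally lower in OV than in 5NC, with 10 of 10 for Leydig cells (median log2 fold change −0.48, 5 at an unadjusted p under 0.05), 6 of 6 for peritubular cells (median −0.49, all 6) and 9 of 10 for Sertoli cells (median −0.19, 3). Of all genes tested, 10.4% were at an unadjusted p under 0.05 in this comparison. Without 5NC replicate 1 the median was −0.337 for Leydig markers (9 of 10 lower, 1 under 0.05), −0.386 for peritubular markers (6 of 6, 5) and −0.0345 for Sertoli markers (7 of 10, 2). Macrophage markers then had a median of 0.901 (8 of 8 higher, 6 under 0.05). edgeR with Benjamini-Hochberg adjustment called 0 genes of these 4 lists in OV against 5NC, also with the replicate block in the fit of 4 groups. Without the 3 libraries named above it called 1 macrophage and 1 Sertoli marker. With the replicate block in the fit of OV and 5NC alone it called 4 macrophage, 2 Sertoli, 3 Leydig and 2 peritubular markers. The part of cell makeup in the levels of the 10 genes was not tested.

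**Figure D5:**
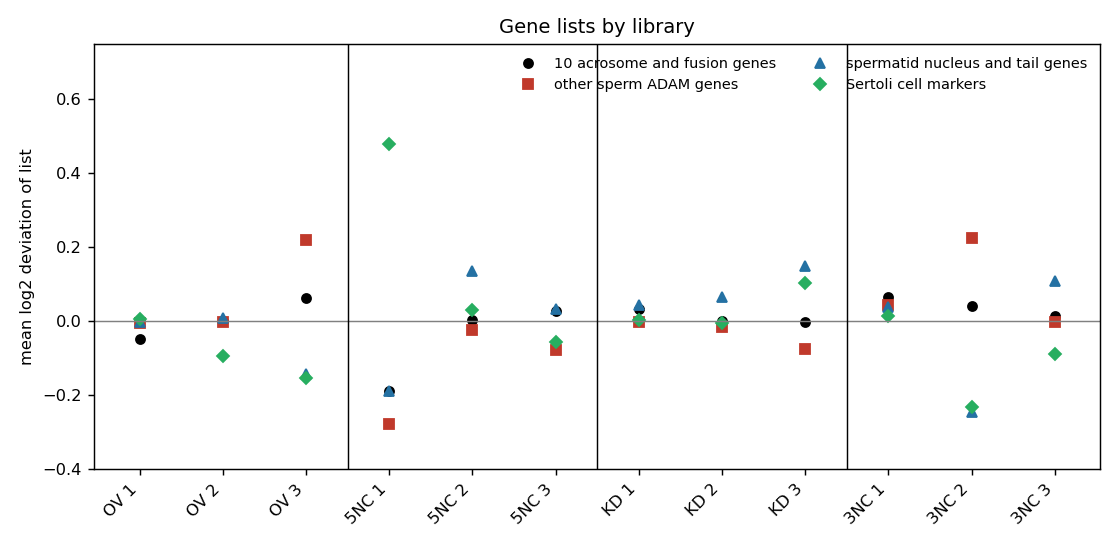
Mean log2 deviation of 4 gene lists from each gene's mean over 12 libraries, by library: the 10 acrosome and fusion genes, 12 other sperm ADAM genes, 14 genes of the spermatid nucleus and tail, and 10 Sertoli cell markers. In 3NC replicate 2 and OV replicate 3 the ADAM genes are above 0 at 0.224 and 0.219 with the nucleus and tail genes below it, and in 5NC replicate 1 the Sertoli markers reach 0.48 with the other 3 lists below 0.

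Other genes of the acrosome and of fusion were not called either. Of 63 further genes in 5 lists (other fusion factors, other sperm ADAMs, ADAM maturation, other acrosomal contents and acrosome formation), edgeR with Benjamini-Hochberg adjustment called 0 in OV against 5NC, 0 in KD against 3NC and 0 in 5NC against 3NC. At an unadjusted p under 0.05 there were 14 of the 63 in OV against 5NC (22.2%, against 10.4% of all genes), 0 in KD against 3NC (6% of all genes) and 16 in 5NC against 3NC (25.4%, against 12.1% of all genes). These counts depended on 5NC replicate 1. Without it they were 2, 1, 0, 0 and 1 in the lists as ordered above in OV against 5NC, beside 1166 of 16531 genes in all. In 5NC against 3NC they were 0, 4, 0, 1 and 2, beside 1217 of 16531. With all libraries, 42 of the 63 were nominally higher and 21 lower in OV than in 5NC, and in KD 28 were higher and 35 lower than in 3NC. The 12 other sperm ADAM genes were nominally higher in OV than in 5NC in 12 of 12 cases (median log2 fold change 0.19), lower in KD than in 3NC in 11 of 12 (median −0.14), and lower in 5NC than in 3NC in 12 of 12 (median −0.19). The extremes of this list were in 3 libraries: its mean log2 deviation was −0.006, −0.004 and 0.219 in OV and −0.278, −0.024 and −0.077 in 5NC, and −0.003, −0.017 and −0.076 in KD and 0.043, 0.224 and −0.003 in 3NC. Without OV replicate 3, 5NC replicate 1 and 3NC replicate 2 the median log2 fold change was 0.0501 in OV against 5NC (9 of 12 higher), −0.0554 in KD against 3NC (11 of 12 lower) and −0.0578 in 5NC against 3NC (9 of 12 lower).

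In OV against 5NC the gene of smallest p in each list was Tmem81, Adam6b, Pdilt, Hyal5 and Gopc, none of them called. Tmem81, a sperm membrane protein that associates with Izumo1 and Spaca6, had 15.8, 18.9 and 20.2 CPM in OV, against 11.2, 13.8 and 14.9 CPM in 5NC. The groups did not overlap, as for 7.64% of all genes in this direction, and the log2 fold change was 0.46 ± 0.14 (edgeR adjusted p = 0.405). Adam6b, a testis ADAM with a near-identical copy in Adam6a that makes its counts uncertain, had 0.33 ± 0.086 (adjusted p = 0.405). Pdilt, a testis chaperone that Adam3 protein needs, had 0.23 ± 0.10 (adjusted p = 0.448). Hyal5, a sperm hyaluronidase, had 0.28 ± 0.12 (adjusted p = 0.452), and Gopc, a Golgi protein without which mouse spermatids form no acrosome, had 0.25 ± 0.10 (adjusted p = 0.444).

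In KD against 3NC the genes of smallest p were Izumo4, Adam26a, Ly6k, Pcsk4 and Agfg1, each with an edgeR adjusted p of 0.764. Izumo4, a relative of Izumo1, had 79.2 ± 3.95 CPM in KD and 68.1 ± 11.7 CPM in 3NC (SD, n = 3 each). Ly6k, a surface protein that Adam3 protein needs in mice, had 95.6, 97.0 and 102 CPM in KD, against 92.8, 69.0 and 92.0 CPM in 3NC, and Pcsk4, a germ cell convertase, had 173, 169 and 167 CPM in KD, against 155, 105 and 165 CPM in 3NC. In both genes 3NC replicate 2 was the low library. Adam26a, a testis ADAM, had a log2 fold change of −0.24 ± 0.12, and Agfg1, which acts in the fusion of vesicles into the acrosome, −0.14 ± 0.070. Among 10 regulators of spermatid genes, the smallest p belonged to Fhl5, a coactivator of CREM, in OV against 5NC (log2 fold change 0.16 ± 0.082, adjusted p = 0.494) and to Rfx2, a transcription factor of spermatid development, in KD against 3NC (0.21 ± 0.122, adjusted p = 0.764).

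The 5 further genes named next had the pattern over 12 libraries most like the mean of the 10, among 15203 genes compared. They were Pdha2 (Pearson's r 0.958), 1700113H08Rik (0.955), Txndc8 (0.951), Zp3r (0.949) and Rad23b (0.947). Each of them was lowest in 5NC replicate 1, and without that library r was 0.845, 0.851, 0.765, 0.799 and 0.808 for these genes in the same order. The points share the libraries and their scaling, and the values are a description.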

How the data were processed

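Total RNA from testes was sequenced in 12 libraries of 4 groups, with groups and replicate numbers taken from the sample titles. The authors deposited expected counts per gene (per the file headers), of which 88% were whole within 1e-06; all were rounded before the test. A further set of columns the authors deposited was read as FPKM from its values. In 5204 genes above 500 reads, the ratio of value to reads was multiplied by the library total and set against its mean over libraries. The median over these genes was off by at most 0.53% in any library. Single genes were off by more, with Spaca6 at 32.81 for 888 reads in 3NC replicate 1 and 25.6 for 839 reads in 3NC replicate 2. The build was mm10, per the submitters' processing notes. The aligner, the counter and the use of strand are not given in the sources. In the table, 18 per-sample columns of other libraries were not used.

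The test was that of edgeR 4.0.16 under R 4.3.3 (quasi-likelihood, robust, TMM, 1 fit of 4 groups, filterByExpr at 10 reads and a total of 15), which kept 16320 genes and all 10 genes described. Common variation between replicates (BCV) was 0.13, and calls needed a Benjamini-Hochberg adjusted p below 0.05 over all genes tested. SE is the fitted log2 difference divided by the square root of F, and intervals are at 95%. CPM are TMM-scaled, counting errors cover counting only, and the fit was checked on simulated counts. DESeq2 1.42.0, limma 3.58.1 on log2(FPKM + 0.1) and log2(FPKM + 1), other filters and scaling, other controls and left-out libraries were alternatives.

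Deviations of same-numbered libraries correlated at 0.165, 0.149 and 0.109 between OV and 5NC, so a block fit is given there as a pairing read from the data; KD and 3NC had 0.0079 to 0.0558, and 5NC and 3NC −0.0339 to 0.021. The genes and lists were chosen with earlier results of these data known. All 10 genes are named, and of each other list the called genes or, with none, the gene of smallest p; Pmis2 was not matched in the table. The 5 genes alike are those of highest r with the mean of the 10 genes' standardised log2 CPM, at a mean of at least 1 CPM. Sequences and positions are from RefSeq, build GRCm38.p6.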

Additional observations from a re-analysis of the deposited data

How the results depend on the processing

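Over 709 alternative values, edgeR, DESeq2 and limma called 0 of the 10 genes in each of 73 combinations of a comparison with a setting. These are not independent, since they reuse the same libraries and many only leave out 1 library. Single genes kept their sign in 471 of 530 values; the 59 with another sign had sizes up to 0.133 and adjusted p of at least 0.553, and the cause was not tested. Depth leaves counting errors of at most 3.55% for a gene in a library. The unstated origin of the libraries and the inferred controls limit what fold changes of this size show.

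For OV against 5NC, all genes called (0) became 45 with DESeq2, 55 without 5NC replicate 1, 3NC replicate 2 and OV replicate 3 together (a setting chosen after seeing the data), 215 with a replicate block in the fit of the 2 groups, 52 against 3NC, 3 against both controls, and 0 to 5 with 1 library left out. The median of the 10 genes (0.06) was −0.0363 without the 3 libraries, −0.0258 against 3NC, −0.00274 without 5NC replicate 1 and 0.026 without OV replicate 3. Without the 3 libraries log2 fold changes were −0.0407 (Izumo1), −0.0319 (Adam2), −0.0161 (Adam3), −0.00929 (Zpbp), −0.0763 (Zpbp2) and −0.012 (Acrv1). Against 3NC they were −0.11 (Izumo1), −0.016 (Spaca1), −0.00521 (Adam2), −0.0425 (Adam3), −0.0356 (Zpbp) and −0.0577 (Acrv1), and Izumo1 had −0.00813 against both controls. With 1 library left out, ranges were −0.0476 to 0.0559 (Spaca6), −0.0358 to 0.0875 (Zpbp2) and −0.00629 to 0.0898 (Acrv1).

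For KD against 3NC, all genes called (29) became 70 with DESeq2, 16 with limma on log2(FPKM + 0.1), 77 with a replicate block in the fit of the 2 groups, 8 against 5NC, 3 against both controls, and 10 to 22 with 1 library left out (12 without 3NC replicate 2). The median (−0.03) was 0.0634 against 5NC. Spaca6 had 0.0542 and 0.0524 with limma at pseudocounts of 0.1 and 1, and 0.000453 with the replicate block. Without the 3 libraries values were 0.0178 (Adam2), 0.0339 (Adam3), 0.0167 (Zpbp2), −0.0998 (Acr), −0.00868 (Acrbp) and −0.0125 (Acrv1). Against 5NC they were 0.0905 (Izumo1), 0.115 (Spaca1), 0.0237 (Adam2), 0.133 (Adam3) and 0.08 (Zpbp), and against both controls 0.0046 (Spaca1) and 0.0552 (Adam3). With 1 library left out, ranges were −0.0466 to 0.0306 (Spaca6), −0.0786 to 0.0178 (Adam2), −0.0567 to 0.0339 (Adam3), −0.0843 to 0.0168 (Zpbp2), −0.0998 to 0.0892 (Acr), −0.00864 to 0.138 (Acrbp) and −0.0125 to 0.0634 (Acrv1).

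For 5NC against 3NC, all genes called (59) became 151 with DESeq2, 31 and 32 with limma at pseudocounts of 0.1 and 1, 94 with a replicate block in the fit of the 2 groups, and 16 to 66 with 1 library left out. Spaca6 had −0.00341 with a filter at 1 CPM and −0.000704 without the 3 libraries, Adam2 0.0421 and Zpbp2 0.0888 without them, and Zpbp2 0.00115 and 0.00113 with limma. With 1 library left out, ranges were −0.0581 to 0.0469 (Spaca6), −0.0559 to 0.0466 (Zpbp2), −0.142 to 0.0665 (Acr) and −0.0215 to 0.125 (Acrbp). The replicate block changed no call among the 10 genes in any comparison. The labels give only a replicate number, and no pairing of libraries. Libraries that correlated best with their own number were 6 of 6 for OV and 5NC, 5 of 6 for KD and 3NC and 0 of 6 for 5NC and 3NC. For KD and 3NC the correlations themselves were only 0.0079 to 0.0558.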
